A study of Mus musculus with 30 samples.

Results

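The βTC3 cells compared here carried either a doxycycline-inducible hairpin named sh2, directed against the activin receptor ALK7, or a control plasmid, and both sets had been given activin B. The comparison was chosen by its labels alone: 3 libraries of the sh2 line and 3 of the control line, 6 of the 30 libraries in the study, all marked batch 1. βTC3 is a mouse insulinoma line, derived from pancreatic islet tumour cells that make insulin. Wells of both lines received 1 µg/ml doxycycline (DOX), the inducer of the construct, for 24 hours and 50 ng/ml activin B for 24 hours. The control carried the plasmid PB-33 and the hairpin line the plasmid PB-31. Every PB-31 library studied held a hairpin, so hairpin and plasmid backbone cannot be told apart. The labels do not say how the lines were derived from each other, so effects of the hairpin and other differences between the lines cannot be told apart either. Cells of each line had been plated in triplicate and nothing in the labels names separate lines, so p-values measure only the spread between these wells, which may be technical. The other 24 libraries came from these 2 lines with DOX alone and from lines carrying ALK7, a dominant-negative ALK7 or a pair of hairpins (sh1/2), and they served to estimate the spread and to compare members.

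Activin B is a dimeric ligand of the TGF-β family. It binds a type II receptor (ActRIIA or ActRIIB), which activates a type I receptor, ALK4 or ALK7, and the type I receptor phosphorylates SMAD2 and SMAD3, which enter the nucleus with SMAD4 and act on transcription. ALK7, encoded by Acvr1c, is the type I receptor best known from islet beta cells, fat and neurons.

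The targeted gene was lower in every sh2 library. Acvr1c (mm10, chr2:58267453-58357895, minus strand, protein-coding) stood at 97.0, 110 and 95.2 CPM (library-scaled counts, not corrected for gene length) in the control libraries. In the sh2 libraries it stood at 44.5, 40.9 and 42.7 CPM. The groups did not overlap, and the log2 fold change, sh2 minus control, was -1.24 ± 0.11 (standard error, SE; adjusted p = 1.08e-08, edgeR quasi-likelihood test, Benjamini-Hochberg over all genes). Values after ± below are SEs of log2 fold changes between groups of 3 libraries, with the spread estimated in the fit of all 30 libraries. The sh1/2 line had less Acvr1c than sh2 with activin B, by -0.68 ± 0.11 (adjusted p = 3.99e-05). In bulk RNA, fewer cells with a transcript and less transcript per cell cannot be told apart, here and in every comparison below.

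Marker genes of beta cells were abundant in all 6 libraries. The 10 beta cell markers, among them Ins1, Ins2, Pdx1 and Nkx6-1, summed to between 1.4e+04 and 1.59e+04 CPM in the control and between 1.42e+04 and 1.49e+04 CPM in sh2. Glut2 (Slc2a2), the beta cell glucose transporter, was near its floor, at 0.688 to 1.68 CPM. Summed markers of exocrine cells reached at most 0.301 CPM, of endothelial cells 0.319, of immune cells 0.317 and of stromal cells 1.64 in any of the 6 libraries. Other sums differed between the lines, each through 1 gene. The 3 neuronal markers summed to 3.19 to 3.63 CPM in the control and 5.83 to 5.94 CPM in sh2, most of it Slc17a6. Of the other neuronal markers, Rbfox3 was at 0.948 to 1.66 CPM in the control and 1.2 to 1.38 CPM in sh2. Gad1 reached at most 0.129 CPM. Alpha cell markers summed to 17 to 17.9 and 11.7 to 13.5 CPM, most of it Gcg. The alpha cell marker Irx2 ran the other way, at 2.54 to 3.36 CPM in the control and 3.96 to 4.18 CPM in sh2. The part of these genes in the results was not tested. Prss2, Cpa1 and Cdh5, which define acinar and endothelial cells, had no count in any of the 6 libraries. Library totals of the 6 ran from 23204802 to 34740789 counts, and the first principal component (33.2% of the variance) separated the lines.

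Of 15627 genes tested, 462 (2.96%) were higher and 950 (6.08%) lower in sh2 cells, 9.04% in all at an adjusted p under 0.05. Most differences were small: the median size among the called genes was 1.36-fold, while 46 genes rose and 176 fell at least 2-fold. In 1383 of the 1412 called genes the libraries of the 2 lines did not overlap, a pattern shown by 23.8% of all tested genes. Called genes were mostly protein-coding (1350). Fitted on the 6 libraries alone, the test called 464 genes, 108 higher and 356 lower. Gene GC content moved with the libraries: the correlation of a library's deviation from its group mean with GC (Spearman, across genes, which are not independent) was -0.674 in control replicate 2 against 0.612 and 0.429 in replicates 1 and 3. With an offset for GC, 1303 genes were higher and 1249 lower, so that 51.1% of calls were higher in place of 32.7%, and 1361 of the original calls remained in the same direction. The median log2 fold change over all genes was 0.01, and 0.04 with the GC offset.

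**Figure D1:**
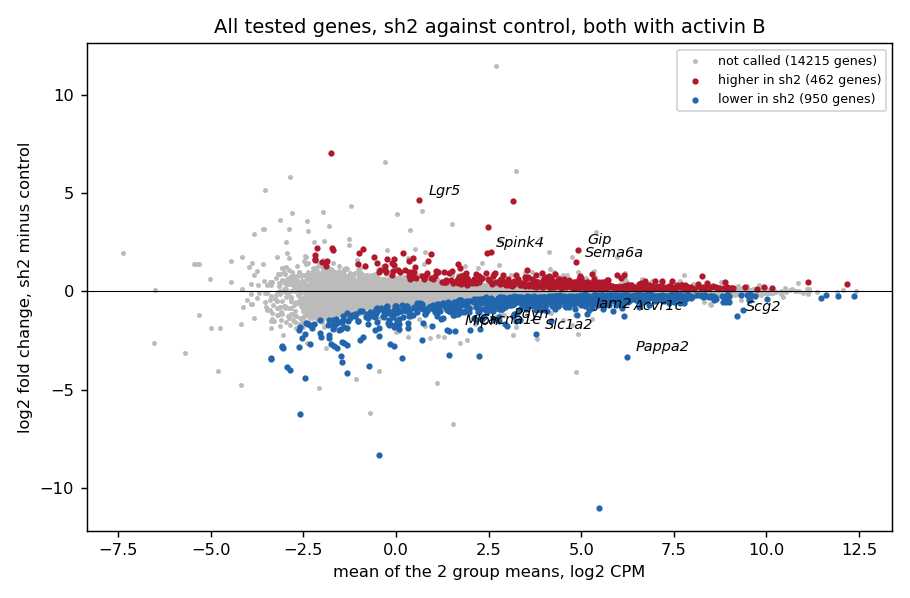
Log2 fold change (sh2 minus control, both with activin B) against mean expression in log2 CPM for every tested gene, with genes past an adjusted p of 0.05 coloured. The 950 lower genes outnumber the 462 higher ones, and Pappa2 stands lowest among the labelled genes.

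The largest fall among well-counted genes was in Pappa2 (chr1:158711727-158980490, minus strand), a secreted protease that cleaves IGF-binding proteins. Its level was 141, 139 and 128 CPM in the control libraries and 14.2, 12.4 and 14.2 CPM in sh2. All 3 sh2 libraries lay at about the tenth part of the control level (-3.32 ± 0.11, adjusted p = 5.33e-17). Slc1a2, which encodes the glutamate transporter GLT-1, stood at 21.9, 24.1 and 21.6 CPM in the control and 4.76, 5.30 and 4.83 CPM in sh2 (-2.18 ± 0.12, adjusted p = 4.01e-12). Cacna1e, the pore subunit of the R-type calcium channel, had 7.47, 5.96 and 5.49 CPM in the control and 1.95, 1.38 and 1.57 CPM in sh2 (-1.96 ± 0.14, adjusted p = 3.36e-10). Neither gene overlapped between the lines. Mlph, which encodes melanophilin, a Rab27 effector, was at 5.41, 4.67 and 4.50 CPM in the control against 1.56, 0.989 and 1.13 CPM in sh2 (-1.99 ± 0.20). The prodynorphin gene Pdyn, a precursor of opioid peptides, was at 11.98, 10.97 and 11.7 CPM in the control against 4.89, 3.39 and 2.96 CPM in sh2 (-1.64 ± 0.14). Both groups were again separate.

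The rest of the 15 largest falls ran from 1.4 to 2.03 on the log2 scale. Nrcam, a neuronal adhesion molecule, fell by 1.99 on the log2 scale, and Sdk2, a synaptic adhesion molecule, by 1.46. The laminin chain Lama1 fell by 1.52, the leucine-rich repeat gene Lrrn2 by 1.44 and the nicotinic acetylcholine receptor subunit Chrna4 by 1.42. Ttyh1, a chloride channel family gene, and Celf2, an RNA-binding splicing regulator, each fell by 1.5. The monocarboxylate transporter Slc16a12 fell by 1.75 and the hedgehog-binding protein gene Hhip by 1.4. AI593442 fell by 2.03. By p rather than by size, Scg2, Mmd2, Mapt and Gucy2c also stood among the 10 genes with the smallest p. Scg2, the granule protein secretogranin II, was at 742, 927 and 826 CPM in the control and 331, 352 and 356 CPM in sh2 (-1.26 ± 0.08, adjusted p = 5.31e-11). The membrane protein gene Mmd2 fell by 1.22, the microtubule protein gene Mapt (tau) by 0.98 and Gucy2c, a guanylate cyclase receptor, by 0.94.

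Gip showed the largest rise among well-counted genes. It encodes the incretin hormone GIP and stood at 11.3, 11.8 and 10.9 CPM in the control and 55.1, 46.1 and 46.2 CPM in sh2 (2.12 ± 0.10, adjusted p = 1.24e-13). Every sh2 library was over 4 times the control mean. Spink4, a Kazal-type protease inhibitor gene of the gut, was at 2.27, 2.19 and 2.23 CPM in the control and 7.40, 9.64 and 9.18 CPM in sh2 (1.97 ± 0.14). Sema6a, a transmembrane semaphorin of axon guidance, was at 16.8, 13.4 and 15.7 CPM in the control and 47.0, 40.7 and 41.0 CPM in sh2 (1.49 ± 0.12). Both genes were separate between the lines. Tub, the tubby gene, rose with less spread than most, from 29.1, 25.3 and 27.1 CPM to 51.2, 49.6 and 50.8 CPM (0.89 ± 0.05, adjusted p = 1.03e-11). The other rises among the 15 largest ran from 0.93 to 1.37. They included Slc17a6 (1.17), the vesicular glutamate transporter VGLUT2, the B-type cyclin gene Ccnb3 (1.11), the imprinted, retrotransposon-derived gene Peg10 (1.02), the receptor tyrosine kinase gene Mertk (0.96), the complement C1 inhibitor gene Serping1 (0.94) and the urocortin receptor gene Crhr2 (0.93). Rgs13 (1.37, adjusted p = 0.0529), Slc14a2 (1.01, adjusted p = 0.0621) and Lcp1 (0.97, adjusted p = 0.099) lost the call when only the 6 libraries were fitted. Slc14a2 and Lcp1 also lost it without control replicate 2 (adjusted p = 0.0746 and 0.0669) and without sh2 replicate 1 (0.0985 and 0.0907), and Lcp1 without control replicate 1 (0.0827).

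**Figure D2:**
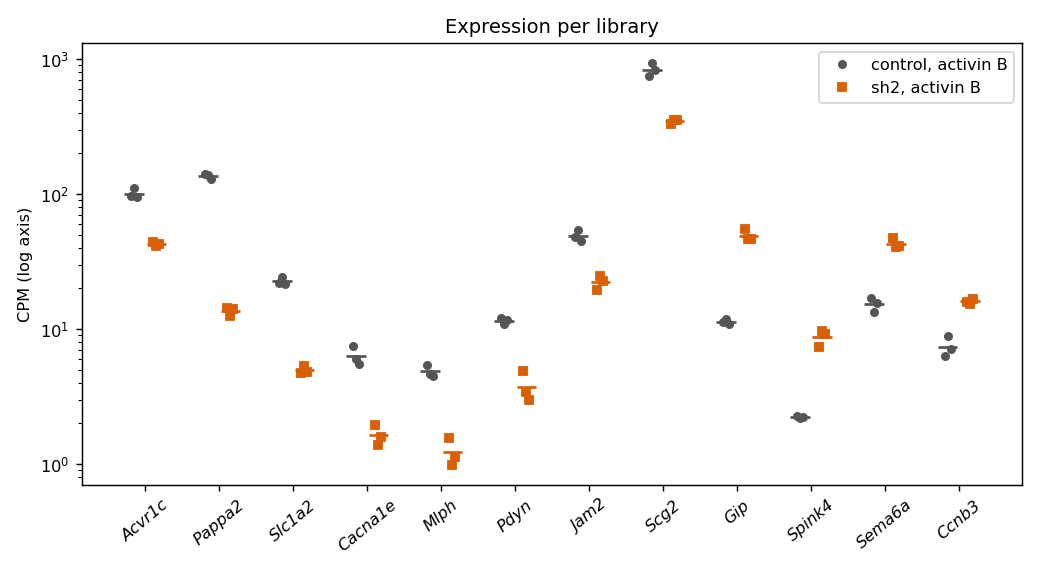
Expression in CPM (log axis) of 12 genes in each library of control (circles) and sh2 (squares) cells with activin B, with bars at the group means. The groups are separate for every gene shown, with Pappa2 falling from 128 to 141 CPM to 12.4 to 14.2 CPM and Gip rising from 10.9 to 11.8 CPM to 46.1 to 55.1 CPM.

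The promoters of one gene that rose and one that fell are shown because SMAD3 and SMAD4 are known to bind the letters CAGAC, read GTCTG on the other strand. Each is the 250 bases before the RefSeq transcription start on GRCm38.p6, 5′ to 3′ on the gene's strand, with a match in capitals. Gip lies at chr11:96024295-96024544 on the plus strand and Nrcam at chr12:44328635-44328884 on the plus strand.
Gip: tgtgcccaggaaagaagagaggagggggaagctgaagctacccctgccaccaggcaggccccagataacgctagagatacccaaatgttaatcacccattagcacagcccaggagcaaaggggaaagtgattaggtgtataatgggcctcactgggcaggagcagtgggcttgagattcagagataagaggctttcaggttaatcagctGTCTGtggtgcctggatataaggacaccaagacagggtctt
Nrcam: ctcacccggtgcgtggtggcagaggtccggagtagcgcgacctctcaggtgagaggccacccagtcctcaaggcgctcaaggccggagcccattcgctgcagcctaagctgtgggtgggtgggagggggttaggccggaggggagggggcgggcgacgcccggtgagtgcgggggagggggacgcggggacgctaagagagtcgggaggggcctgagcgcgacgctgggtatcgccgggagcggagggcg
The Gip window held 1 copy and the Nrcam window 0. The windows of Rgs13, which rose, and Slc16a12, which fell, were also read and held 0. Across the 10459 tested genes with a promoter in the table, 40.6% of windows held CAGAC on either strand, as did 42.5% of the genes called higher and 39.7% of those called lower. These shares lay within 3 percentage points of each other. Of the 15 largest rises 9 had a promoter in the table and 3 held the letters (33.3%). Of the 15 largest falls 14 had one and 6 held them (42.9%).

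Apart from Acvr1c, the receptors showed no called difference. None of the other measured receptors of the list (1 of 10 called, 0 higher) passed the test. The type I receptor gene Acvr1b, encoding ALK4, was at 0.15 (adjusted p = 0.317), Tgfbr1, the type I receptor of TGF-β, at -0.17 (0.297), and the type II receptor genes Acvr2a and Acvr2b at -0.10 (0.632) and -0.15 (0.83). Of the signal transducers Smad2 was lower by a small amount, from 112, 112 and 109 CPM to 92.8, 95 and 93.3 CPM (-0.24 ± 0.05, adjusted p = 0.00101), a call that ended in the fit of the 6 libraries alone (adjusted p = 0.058). Smad3 (0.10, adjusted p = 0.716) and the common partner Smad4 (0.05, adjusted p = 0.637) did not pass. Smad9, a transducer of the BMP branch, fell by 0.49 ± 0.07.

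SMAD2/3 target genes were called in both directions. Of 30 measured, 3 rose and 2 fell, 16.7% beside 9.04% of all genes, with a median of 0.03 against 0.01 over all genes. The gene lists were chosen with earlier results of these data known, so their shares describe the lists and are no test. Most lists lay above the share of all genes. Those below were glycolysis (8.82%), calcium and cAMP early genes (7.41%), D cyclins and CDK inhibitors (6.67%) and G2/M (3.33%). The small RNA, stromal and endothelial, and immune lists had 0%. The 2 SMAD2/3 targets that fell were Pmepa1 (-0.51 ± 0.15, adjusted p = 0.0276) and Ldlrad4 (-0.63 ± 0.11), which both encode proteins that bind SMADs and dampen TGF-β signalling. Pmepa1 stood at 83.5, 64.7 and 73.3 CPM in the control and 51.2, 50.6 and 53.5 CPM in sh2. Its groups did not overlap, but leaving out any library other than control replicate 2 ended the call, with adjusted p-values from 0.0665 to 0.12. The latent TGF-β binding protein gene Ltbp2 (0.59), Sox4 (0.24), a transcription factor of endocrine development, and Bambi (0.18), a decoy receptor, rose, and none of these 3 calls held in the fit of the 6 libraries alone (adjusted p = 0.0505, 0.112 and 0.25) or without control replicate 3 (0.0909, 0.11 and 0.118) or sh2 replicate 3 (0.0811, 0.0658 and 0.183). Smad7, the inhibitory SMAD, showed 15.3, 12.04 and 13.9 CPM in the control and 14.6, 12.99 and 14.01 CPM in sh2 (0.01 ± 0.11, adjusted p = 0.979). Of the BMP antagonists, Grem1 fell by 1.60 ± 0.28, from 1.48, 2.14 and 2.05 CPM to 0.476, 0.706 and 0.659 CPM.

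Genes that respond to activin B were taken from the line carrying ALK7, none of whose libraries enter the comparison. Activin B raised 492 genes at least 2-fold there, of which 43 were higher and 72 lower in sh2 than in control cells, or 8.74% higher and 14.6% lower beside 2.96% and 6.08% over all genes. It lowered 277 genes at least 2-fold, of which 27 were higher and 46 lower in sh2, or 9.75% and 16.6%. Both sets thus held larger shares of calls than all genes, in both directions. The median log2 fold change in sh2 was -0.05 for the raised genes and -0.14 for the lowered ones, beside 0.01 over all genes. Of the 10 genes most raised in the ALK7 line, Jam2, a junctional adhesion molecule, fell from 47.6, 53.8 and 45.0 CPM to 19.6, 24.6 and 22.5 CPM in sh2 (-1.13 ± 0.10, adjusted p = 3.85e-08). Agt (angiotensinogen) was lower by -0.61 ± 0.17 and Ltbp2 higher, while Spon2 (-0.35, adjusted p = 0.128), Tmc7 (-0.30, 0.112), Prr5l (-0.25, 0.389) and 4 others did not pass. Agt lost its call in the fit of the 6 libraries alone (adjusted p = 0.0776) and without control replicate 1 (0.126), control replicate 3 (0.0607), sh2 replicate 2 (0.0829) or sh2 replicate 3 (0.0809). Of the 10 most lowered, the phospholipase C gene Plcb2 (1.24 ± 0.17), the signalling adaptor gene Lcp2 (1.44 ± 0.21) and the adhesion gene Chl1 (0.53 ± 0.14) rose, Pdyn (above) and Slitrk6 (-0.49 ± 0.14) fell, and 5 did not pass. Chl1 and Slitrk6 were not called with the 6 libraries alone (adjusted p = 0.108 and 0.0665), nor without sh2 replicate 1 (0.0961 and 0.0698).

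Of 14 measured islet hormone genes and their partners, a list chosen with earlier results known, 3 rose and 6 fell, 64.3% beside the 9.04% of all genes. With the 6 libraries alone 2 rose and 3 fell. Gip and Rbp4, the gene of the retinol carrier (0.86 ± 0.10), were among those that rose. Gcg, the glucagon gene, fell from 14.4, 14.4 and 14.6 CPM to 9.57, 7.48 and 8.38 CPM (-0.77 ± 0.08, adjusted p = 3.5e-07). The neurotensin gene Nts (-2.73) and Pdyn fell as well. Unlike Pdyn, Nts did not meet both conditions of the 15 largest falls, a mean of at least 2 CPM and no overlap between the lines. The amylin gene Iapp was at -0.26, a call that ended with the 6 libraries alone (adjusted p = 0.111) and with the GC offset (0.205). The beta cell identity list had 2 higher and 4 lower of 38 (15.8%), with a median of 0.01. Ins1 (0.11, adjusted p = 0.643), Ins2 (0.03, 0.951) and Pdx1 (-0.03, 0.85) did not pass. Its members with changes included the transcription factor gene Mnx1, at 3.58, 2.48 and 3.12 CPM in the control and 1.04, 0.847 and 0.805 CPM in sh2 (-1.78 ± 0.21), the ER oxidase gene Ero1lb (-0.38), the GIP receptor gene Gipr (0.60 ± 0.13) and the prohormone-processing carboxypeptidase gene Cpe (0.24). Cpe was not called with the 6 libraries alone (adjusted p = 0.0614). Both the hormone gene Gip and its receptor gene were higher in sh2 cells. Of the endocrine progenitor genes, Fev (2.13 ± 0.41), Gata6 (0.34) and Sox4 rose and Prox1 (-0.29) fell. Fev was low throughout, at 0.0857 to 0.248 CPM in the control and 0.695 to 1.21 CPM in sh2. Prox1 was not called with the 6 libraries alone (adjusted p = 0.0639), nor without control replicate 2 (0.106) or any one of the sh2 replicates (0.0569 to 0.0803).

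Secretory granule genes were called in both directions. Of 23 granins and cargo genes 30.4% were called beside 9.04% of all genes: 5 fell, with Scg2 the most changed, followed by Th, the tyrosine hydroxylase gene (-0.71 ± 0.12), and Scg3 (-0.43 ± 0.09), and 2 rose. Among 29 genes of the exocytosis machinery 5 fell and 0 rose, 17.2% beside 9.04% of all genes, with a list median of -0.03. They included the Rab27 effector gene Sytl4, with 533, 599 and 577 CPM in the control and 393, 392 and 410 CPM in sh2 (-0.52 ± 0.08), the calcium sensor gene Doc2b (-0.56 ± 0.11), the vesicle GTPase gene Rab3c (-0.42) and the SNARE gene Snap25 (-0.29). Snap25 was not called with the 6 libraries alone (adjusted p = 0.0776). Of 48 ion channel genes 4 rose and 7 fell (22.9%). Beside Cacna1e, the falls included the ryanodine receptor gene Ryr2 (-1.24 ± 0.16) and the BK channel gene Kcnma1 (-1.0 ± 0.14). All 3 genes of the inositol trisphosphate receptors rose, namely Itpr2 (0.47 ± 0.06), Itpr3 (0.57) and Itpr1 (0.30). Itpr3 was not called with the 6 libraries alone (adjusted p = 0.0915) or without control replicate 2 (0.0616), nor Itpr1 without sh2 replicate 3 (0.0503). The calcium release channels of the endoplasmic reticulum went in opposite directions, Ryr2 down and the Itpr genes up.

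Of 45 axon guidance and synaptic genes 6 rose and 8 fell, 31.1% beside 9.04% of all genes. The Eph receptor genes Epha4 (0.83 ± 0.10), Epha5 (0.59) and Epha7 (0.54 ± 0.08) rose while Ephb2 (-1.23) fell, the last not with the 6 libraries alone (adjusted p = 0.101) or without control replicate 1 (0.0729). Epha7 stood at 81.8, 90.2 and 83.9 CPM in the control and 121, 124 and 127 CPM in sh2. The netrin receptor genes Unc5c (-0.73 ± 0.08) and Unc5d (-1.41) and the semaphorin gene Sema3c (-0.88) fell, in contrast to Sema6a. The neuronal and glial markers had 7 of 20 lower (40% called in all), among them the myelin gene Mbp (-0.52 ± 0.06) and the water channel gene Aqp4 (-1.27 ± 0.18), and 1 higher, Slc17a6. In the growth factor and Wnt list 3 rose and 7 fell of 45 (22.2%). Lgr5, an R-spondin receptor and stem cell marker, stood at 0.145, 0.0857 and 0.106 CPM in the control and 3.64, 2.82 and 2.49 CPM in sh2 (4.63 ± 0.47, adjusted p = 2.11e-07), close to no counts in the control. It was higher also in sh2 cells with DOX alone (3.56), while the sh1/2 line with activin B lay at the control level (-0.02). The FGF receptor gene Fgfr2 rose (0.63 ± 0.09). Kitl, the ligand of the receptor KIT, fell (-0.78 ± 0.12), as did Egfr (-0.51), Wnt4 (-0.83) and Fgf1 (-1.12).

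Several cholesterol and fatty acid genes fell. Of 25 cholesterol genes 6 fell and 0 rose (24% called), with a median of -0.11, and 22 of 25 lay below 0. Over all genes 6.08% fell and 2.96% rose, so few rises would be found in a list of this length. They included the cholesterol exporter gene Abca1, with 246, 239 and 225 CPM in the control and 178, 167 and 171 CPM in sh2 (-0.46 ± 0.07, adjusted p = 6.27e-05). Of 34 fatty acid genes 8 fell and 0 rose (23.5% called, median -0.10). Cpt1a, the gatekeeper of mitochondrial fatty acid oxidation, had 93.5, 83.3 and 94.2 CPM in the control and 60.4, 61.7 and 65.5 CPM in sh2 (-0.53 ± 0.05, adjusted p = 3.01e-08). The desaturase gene Scd1 (-0.40 ± 0.07), the coactivator gene Ppargc1a (-0.67 ± 0.14) and Acly (-0.25 ± 0.06) fell too. Synthesis and oxidation genes were both among the falls. Of the cholesterol genes 3 were called lower with the 6 libraries alone, and 2 without sh2 replicate 3. The fatty acid list had 3 lower in the fit of the 6 libraries, where Acly was not called (adjusted p = 0.161).

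Interferon and antigen presentation genes had 6 of 42 lower and 0 higher, 14.3% beside 9.04% of all genes, with a median of -0.11. They included the deconjugase gene Usp18 (-0.47 ± 0.05, adjusted p = 5.45e-07), H2-D1 (-0.33 ± 0.06), Ddx58, the RNA sensor RIG-I (-0.46 ± 0.09), and Mx1 (-1.01), an antiviral GTPase gene. Ddx58 was not called with the 6 libraries alone (adjusted p = 0.0979), and Mx1 not without sh2 replicate 1 (0.0699). Of 33 ATF4 and amino acid stress genes 5 fell, led by Nupr1 (-0.68 ± 0.09) and the cystine transporter gene Slc7a11 (-0.79 ± 0.13), and 0 rose (15.2%). The genes of the small RNA machinery, which a hairpin passes through, had 0 of 14 past the edgeR test, 4 at an unadjusted p under 0.05 and 0 with DESeq2.

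Called differences in the G1/S and G2/M lists were small. Of 35 genes of G1/S and DNA replication 5 rose and 0 fell, 14.3% beside 9.04% of all genes, with a median of 0.11. They included the replication genes Mcm10 (0.23), Cdc45 (0.20) and Mcm7 (0.20). With the 6 libraries alone none of the 35 was called, whereas 13 were higher with the GC offset. One of 30 genes of G2/M was higher, Kif20a (0.20), and 7 with the GC offset. The cyclin gene Ccnd2 fell from 0.989, 1.24 and 1.17 CPM to 0.433, 0.247 and 0.256 CPM (-1.86 ± 0.27). Of 34 measured apoptosis genes 3 fell, namely Casp9 (-0.33), Birc3 (-0.76) and Dapk1 (-0.24). Those 3 calls ended with the 6 libraries alone (adjusted p = 0.128, 0.0663 and 0.201), and those of Birc3 and Dapk1 also without control replicate 3 or sh2 replicate 3 (0.0753 to 0.121).

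Matrix and adhesion lists were mixed, with 21.7% and 19.4% called beside 9.04% of all genes. Of 46 matrix and integrin genes 4 rose, among them the metalloprotease gene Adam12 (1.67 ± 0.24), and 6 fell, among them Lama1 and Timp2, a metalloprotease inhibitor (-0.66 ± 0.11). Adam12 was low, at 0.257 to 0.496 CPM in the control and 1.02 to 1.69 CPM in sh2. Of 36 adhesion genes 2 rose and 5 fell, including Jam2, Nrcam and L1cam (-0.67 ± 0.11). Of 22 imprinted genes 3 rose and 2 fell (22.7%): Peg10, Grb10 (0.63) and Gnas (0.39) rose, and the noncoding RNAs Meg3 (-0.51 ± 0.05) and Rian (-0.62 ± 0.08), which lie in one imprinted cluster, fell. Meg3 stood at 204, 192 and 198 CPM in the control and 140, 133 and 145 CPM in sh2. Gnas and Grb10 were not called with the 6 libraries alone (adjusted p = 0.0776 and 0.0748), nor Grb10 without control replicate 2 (0.0626) or 3 (0.0717).

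The called genes were next read in libraries outside the comparison. With DOX alone, 253 of the 462 higher genes (54.8%) were also higher in sh2 than in control cells and 0 were lower, and 659 of the 950 lower genes (69.4%) were also lower and 1 was higher. These 253 and 659 genes were 48.8% and 64.2% of the calls of that comparison in their direction. The share of all genes called there was 3.31% higher and 6.57% lower. Those sh2 libraries were batch 2 and their controls batch 1, so line and batch cannot be told apart in them. In the sh1/2 line with DOX alone, whose libraries were batch 1, 299 of the 462 (64.7%) were higher and 15 lower, where 19.3% of all genes were higher. Of the 950 lower genes 561 (59.1%) were lower there and 62 higher, where 18.5% of all genes were lower. The 299 and 561 made up 9.89% and 19.4% of that line's own calls. Both DOX comparisons share their control libraries. Pappa2 was at -3.22 and -2.74 in sh2 and sh1/2 cells with DOX alone, Slc1a2 at -2.52 and -2.96, and Gip at 1.87 and 4.84. In the sh1/2 line with activin B, where 16.8% of all genes were higher and 18.2% lower than in the same control libraries, Gip was at 5.16 and Pappa2 at -2.32. Slc17a6 and Tceal6 rose in sh2 but were at -0.17 and -0.56 in sh1/2 with DOX alone.

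**Figure D3:**
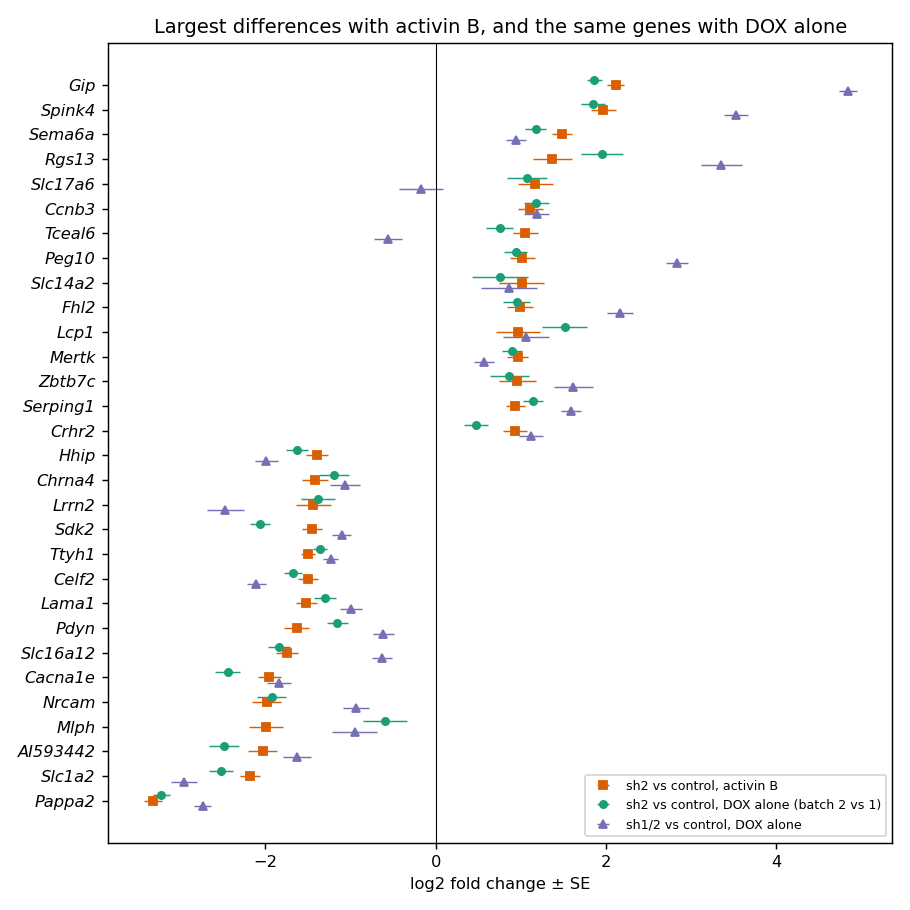
Log2 fold change ± SE of the 15 largest rises and 15 largest falls in sh2 against control with activin B (squares), beside sh2 (circles) and sh1/2 (triangles) against control with DOX alone, 2 comparisons that share their control libraries. All 30 genes keep their sign in sh2 with DOX alone, and Slc17a6 and Tceal6 have the other sign in sh1/2.

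Chromosome 4 held an unequal share of the lower genes. Of 1071 tested genes there, 129 (12%) were lower and 11 (1.03%) higher, beside 6.08% lower and 2.96% higher over all genes. On the other chromosomes 3.43% (chromosome 17) to 8.49% (chromosome 6) were lower. The median log2 fold change on chromosome 4 was -0.12, while the medians of the other chromosomes ran from -0.03 to 0.09. The median of chromosome 4 genes per library, as deviation from the mean of the control libraries, was 0.0255, -0.0268 and 0.00652 in the control and -0.113, -0.105 and -0.106 in sh2. All 8 windows of 20 Mb had negative medians, from -0.0889 to -0.181. The median was -0.10 with the GC offset and -0.10 in sh2 against control with DOX alone. In the sh1/2 line it was -0.11 with DOX alone and -0.07 with activin B, the second against the same control libraries as sh2, and was the lowest of the chromosomes there too. With DOX alone the next lowest median in sh1/2 was -0.0723, on chromosome 17. With activin B chromosome 4 (-0.0746) lay close to chromosome 14 (-0.0656) in sh1/2 and did not stand apart. Fold changes of sh1/2 followed gene GC content (Spearman across genes, -0.357 with DOX alone and 0.361 with activin B). Medians of sh1/2 were not computed with the GC offset. In sh2 against control with activin B the highest median was on chromosome 7, at 0.09.

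**Figure D4:**
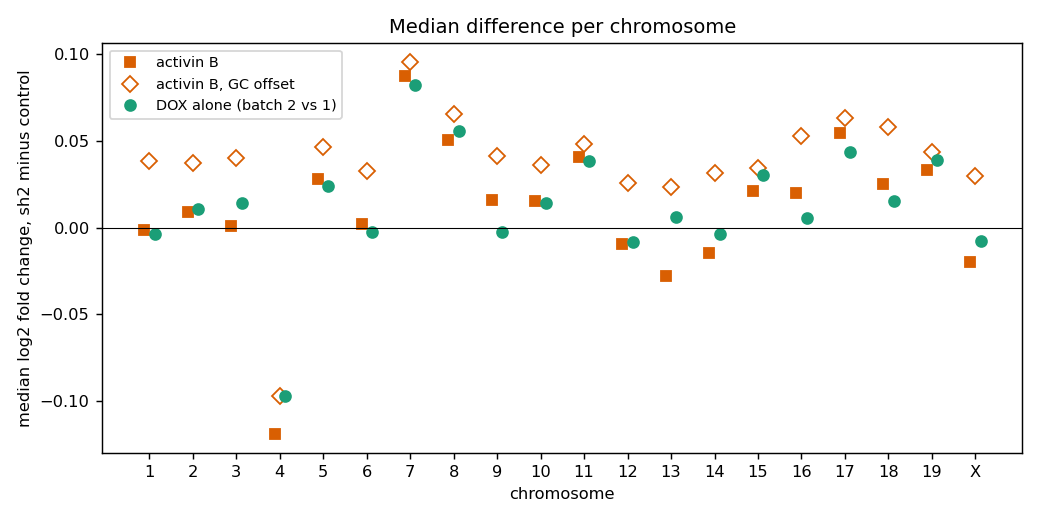
Median log2 fold change (sh2 minus control) of the tested genes of each chromosome with activin B, the same with a GC offset, and with DOX alone. Chromosome 4 lies at -0.12, apart from the other chromosomes.

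Genes of the Y chromosome were nearly without counts in sh2 cells. Ddx3y had 63 counts over the 3 control libraries and 3 over the 3 sh2 libraries, Eif2s3y 54 and 4, and Kdm5d 31 and 1. Uty had 28 and 0, at least 8.55-fold lower against a floor of 3 counts over the group. All 4 genes were called lower. Summed, they gave 47 to 70 counts per control library and 0 to 5 per sh2 library. The sh2 libraries with DOX alone had 5 counts in all, against 115 in the control with DOX alone and 236 in the ALK7 line with DOX alone. The sh1/2 line also lay below the control, with 35 counts with DOX alone (6 to 15 per library, against 23 to 48 in the control). With activin B the sh1/2 libraries had 24 counts in all, 7 to 9 per library, against 176 in the control and 8 in sh2. The part of these Y chromosome differences between the lines, and of the one on chromosome 4, in the other differences was not tested.

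**Figure D5:**
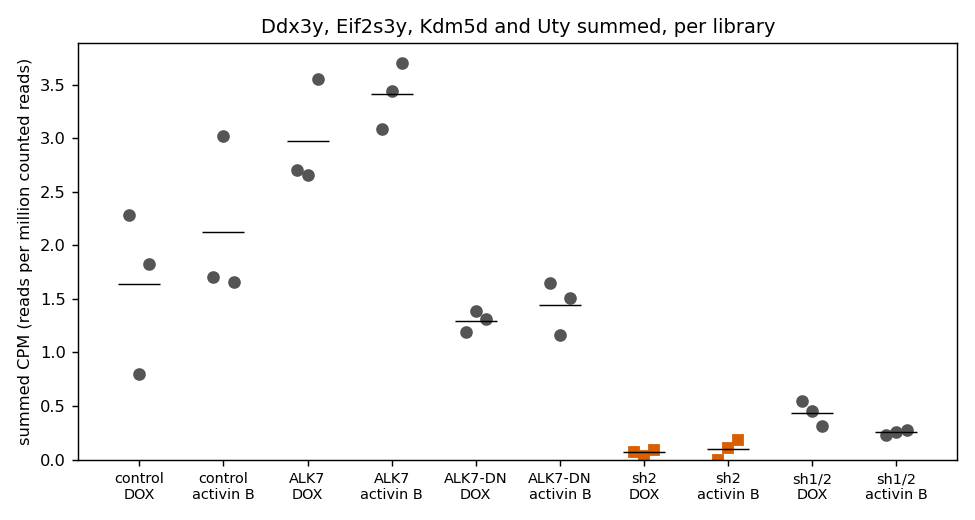
Reads of Ddx3y, Eif2s3y, Kdm5d and Uty summed, in CPM of counted reads, in each of the 30 libraries, by group, with bars at the group means and squares for the sh2 line. The 3 sh2 libraries with activin B held 0 to 5 such reads and the 3 control libraries 47 to 70.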

How the data were processed

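Poly(A) RNA of 30 libraries from 5 lines was compared, of which 6 form the comparison. The authors deposited whole-number read counts per gene for 39017 genes. Per the submitters' processing notes, tools included bcl2fastq 2.17, cutadapt 1.4.2, HISAT2, featureCounts 1.4.4 and edgeR, with build mm10. Strand setting and handling of reads with several matches are not given in the sources used here, so genes with near-identical copies or antisense partners are uncertain. The 37 mitochondrial genes have 0 counts. A normalized table was not used.

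Counts were filtered (filterByExpr), TMM-scaled and fitted with edgeR 4.0.16 (robust quasi-likelihood, 10 group means, all 30 libraries), with a Benjamini-Hochberg threshold of 0.05. On simulated data with known changes the test recovered 79.4% of 2-fold and 55.7% of 1.41-fold genes, with 4.38% of calls false. The simulated counts were independent between genes and had no GC trend between libraries, unlike the real ones. The simulation therefore does not give the share of false calls in these data. CPM are TMM-scaled. Gene positions come from GENCODE vM21, which held 37693 of the IDs. Library totals ran from 18904884 to 34740789 counts, which limits genes under 2 CPM most. Replicates differed by more than counting error (lowest chi-square per degree of freedom 7.74).

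The members and lists were chosen with earlier results of these data known. Named were the 15 largest changes per direction (mean of at least 2 CPM, regular symbol, no overlap), the 10 smallest p, 10 pathway genes (Inhbb fell under the filter), the 4 smallest p of each list and the 10 strongest responders per direction of the ALK7 line. Other called list members were named after their values were seen. Alternatives were DESeq2 1.42.0, RLE size factors, other filters, fewer libraries, a replicate block, a GC offset (longest transcript) and leaving out each library.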

Additional observations from a re-analysis of the deposited data

Results flagged for a closer look

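In 5 named genes sh2 and sh1/2 cells were called in opposite directions against the control with activin B, and the difference between the 2 hairpin lines itself passed the test. Both comparisons share the control libraries, while sh1/2 minus sh2 does not use them. For the guanylate cyclase receptor gene Gucy2c, sh2 stood at -0.94 and sh1/2 at 0.26, a difference of 1.20 (adjusted p = 1.28e-12, edgeR). The prodynorphin gene Pdyn was at -1.64 and 0.45, a difference of 2.09 (adjusted p = 6.73e-11). The glucagon gene Gcg was at -0.77 and 1.08, a difference of 1.85 (adjusted p = 4.79e-14). The noncoding RNA Meg3 was at -0.51 and 0.38, a difference of 0.88 (adjusted p = 6.98e-12). The calcium sensor gene Doc2b was at -0.56 and 0.31, a difference of 0.86 (adjusted p = 1.07e-06).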

How the results depend on the processing

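The count of called genes (1412) was 464 with only the 6 libraries, 2552 with the GC offset and 3560 with the GC offset and replicate block, and 523 with the block in the 6 libraries. Higher genes (462) numbered 108, 1303, 2010 and 135 in the same order, and 694 with the block in all 30 libraries. Lower genes (950) numbered 356 with 6 libraries, 388 with their block and 1550 with GC offset and block. Leaving out a library gave 987 to 1386 called and 284 to 526 higher, the lowest of both without sh2 replicate 3. Sh2 against control with DOX alone had 1545 calls, and 2826 with the GC offset. DESeq2 called 1482 genes, RLE scaling 1413. The GC offset in the 6 libraries, added after seeing the data, gave 1634. Of 125 named calls 83 held with the 6 libraries, 123 with the GC offset and 122 with DESeq2, and none changed sign in any setting.

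Same-numbered wells of both lines correlated at 0.229, 0.154 and 0.0213. For sh2 replicates 1 and 2 the same-numbered control was the best match, with the other controls at -0.201 to -0.00474. Sh2 replicate 3 correlated best with control replicate 2 (0.0838). These values do not settle whether wells of 1 number belong together. The main fit did not pair them, and a replicate block in all 30 libraries gave 1868 called genes. The cause of each shift was not tested, except that the 6-library fit has fewer residual degrees of freedom by construction. Calls of genes under 2 CPM (219) rest on few counts.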

Other observations

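Some of the most extreme fold changes were of pseudogenes whose libraries differed widely within a group, and whose reads can match several genes. Gm7866, a processed pseudogene, stood at 137, 0 and 132 CPM in the control and 0, 0.106 and 0 CPM in sh2 (-11.05, adjusted p = 0.04885 in edgeR). Gm4294 stood at 0.32, 0.857 and 0.991 CPM in the control and 20.3, 30.3 and 0.585 CPM in sh2 (4.59). Such genes had been left out of the named genes by their symbols.

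2 genes outside the rule, chosen after their values were seen, were large and separate between the lines. Sparcl1, a secreted matrix-associated protein gene, stood at 2.35, 3.00 and 2.90 CPM in the control and 0.476, 0.53 and 0.439 CPM in sh2 (-2.50 ± 0.18). The T-box transcription factor gene Tbx3 stood at 0.843, 0.90 and 0.637 CPM in the control and 3.85, 2.47 and 2.74 CPM in sh2 (1.92 ± 0.20).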
